A study of Mus musculus with 6 samples.

Results

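Heat shock proteins and J-domain proteins are the general protein-folding machinery of the cell. The genes described here were taken by symbol: every gene of the deposited table whose mouse symbol begins with Hspa, Hspb, Hspd, Hspe, Hsph, Dnaja, Dnajb or Dnajc followed by a number, or with Hsp90. Hspa5, Hsp90b1, Dnajb9 and Dnajc3, which belong to the endoplasmic reticulum stress response, were left out by the same rule, as were pseudogenes. The rule matched 66 genes, and 61 of them reached its minimum, a mean normalized count of 10 over the 6 libraries. They stand among 16653 genes that were tested and 31245 in the table.

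HSP70 proteins bind exposed hydrophobic stretches of unfolded clients in a cycle of ATP binding and hydrolysis. J-domain proteins (DNAJA, DNAJB and DNAJC) bring clients to HSP70 and start the hydrolysis, HSP110 proteins exchange the nucleotide, and HSP90 receives part of the clients for the last steps of folding. HSP60 with its lid HSP10 folds proteins inside mitochondria, and small heat shock proteins hold aggregation-prone proteins without using ATP. In neurons these proteins also work at the synapse, where the J-domain protein of Dnajc5 (cysteine string protein) serves the release machinery and that of Dnajc6 (auxilin) uncoats clathrin vesicles.

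RNA came from mouse cortical primary neuronal cultures made from pups at postnatal day 1 and kept 12 to 13 days in vitro (DIV) in Neurobasal A with B27. Cultures received either vehicle (PBS) or NGPF2 at 1.5 ng/ml for 2 h, and neither a genotype nor a strain is named. The labels do not spell out NGPF2. There were 3 vehicle and 3 NGPF2 libraries, described by the submitters as 3 pairs from 3 independent experiments, and they are called vehicle 1 to 3 and NGPF2 1 to 3. Where 3 values are given for a group, they stand in the order of replicates 1, 2 and 3. The library names of replicates 2 and 3 share a stem that replicate 1 of either group lacks, so replicate 1 is treated as 1 library batch and replicates 2 and 3 as the other. Whether that stem marks a culture, an extraction or a sequencing run is not given in the sources used here. Batch comparisons thus rest on 1 library per group on the side of replicate 1.

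Whole counts recovered from the table totalled 17478070 to 45193691 per library. Markers showed neurons in all 6 libraries, where 6 pan-neuronal genes summed to between 163247 and 213496 normalized counts. Glial markers differed by library. The 13 tested astrocyte markers (of 14 listed) summed to 29087, 79890 and 72698 normalized counts with vehicle against 32647, 20478 and 16933 with NGPF2, and none of them was at 0. Within replicates 2 and 3 all 13 were lower with NGPF2 past the threshold, as were 8 of 10 tested microglial markers, of which Aif1 was at 0 in NGPF2 2 and 3 and Cx3cr1 in NGPF2 2. Fewer cells of a type and less RNA per cell cannot be told apart in such bulk samples.

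The sequences upstream of the strongly inducible HSP70 pair are shown first. The pair is Hspa1a (chr17:34969190-34972156, minus strand, GRCm38) and Hspa1b (chr17:34956436-34959238, minus strand), nearly identical to each other. These genes had the largest rises of the members that passed within replicates 2 and 3. Over the 3 pairs neither passed, and in pair 1 Hspa1b was lower with NGPF2 (0.841-fold). Both sequences are the 250 bases before the annotated start, from RefSeq (GRCm38.p6), at chr17:34972157-34972406 and chr17:34959239-34959488 on the minus strand, outside annotated exons. Capitals mark the inverted repeat GAANNTTC, part of the recognition sequence of heat shock factors.
Hspa1a: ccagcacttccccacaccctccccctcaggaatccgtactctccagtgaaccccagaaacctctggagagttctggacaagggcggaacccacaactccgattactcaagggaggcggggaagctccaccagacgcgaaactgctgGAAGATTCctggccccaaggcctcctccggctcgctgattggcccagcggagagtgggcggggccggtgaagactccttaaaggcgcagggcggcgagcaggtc
Hspa1b: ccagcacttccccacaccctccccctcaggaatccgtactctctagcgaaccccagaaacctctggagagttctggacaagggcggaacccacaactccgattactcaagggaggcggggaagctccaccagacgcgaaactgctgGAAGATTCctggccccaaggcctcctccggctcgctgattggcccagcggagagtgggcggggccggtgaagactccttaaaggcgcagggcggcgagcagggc
The stretches differ at 3 of 250 bases and are 98.8% identical, and the repeat lies at the same place in both. Within the exons, 58.8% of the 50-base words of Hspa1a also occur in Hspa1b and 62.3% of those of Hspa1b occur in Hspa1a, so that reads could be assigned to either gene.

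Heat shock factors bind arrays of GAA units in alternating orientation, and 3 units in a row are a usual minimum, here the units GAA, TTC and GAA with NN between neighbours, searched on both strands. Of the 61 genes, 50 matched the RefSeq promoter table by symbol, and 4 of these 50 (8%) held a 3-unit match between 250 bases before and 50 bases after a start. Over all 27025 genes of the table the share was 0.662%, and over the 11692 tested genes found there it was 0.547%. The 4 genes were Dnajb6, Hspd1, Hspe1 and Hsph1. Their windows of 30 bases follow, with the repeat units and the bases between them in capitals, each read on the strand of its gene; all lie in an annotated exon.
Dnajb6: cagctccgaGAATCTTCCGGAAcgctagac
Hspd1: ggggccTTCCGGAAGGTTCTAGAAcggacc
Hspe1: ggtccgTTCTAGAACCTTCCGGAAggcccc
Hsph1: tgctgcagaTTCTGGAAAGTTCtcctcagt
Hspd1 and Hspe1 are neighbours transcribed away from each other, and their windows are the same 30 bases (chr1:55088053-55088082) read from either strand. The Dnajb6 window is chr5:29735843-29735872 and that of Hsph1 chr5:149636280-149636309. Each 3-unit match contains both shorter repeats. Of these, GAANNTTC was found in 26% of the 50 genes against 9.04% of the table, and TTCNNGAA in 12% against 9.60%. One match to the shorter repeat belongs to Hspb8, the gene that fell most, and starts 2 bases after the first transcribed base at chr5:116422844-116422873, inside the first exon.
Hspb8: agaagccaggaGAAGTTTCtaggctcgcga
A match describes letters and not bound protein. Of the 4 genes with a 3-unit match, Hsph1 rose within replicates 2 and 3 and the other 3 did not pass, while 7 of the 46 without one rose and 2 fell, and 3 of the 11 not found in the promoter table rose and 1 fell. Of all genes tested, 9.77% rose and 11.3% fell in that contrast (21.1% in all). The 46 include Hspa1a and Hspa1b, which held only the shorter repeat, and the 11 include Hsp90aa1, Hsp90ab1 and Hspa8. Only exact units were searched, so a gene without a match is not shown to lack a recognition sequence.

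The genes spanned more than 3 orders of magnitude in level. On the scale of mean normalized count per kb of exon, the highest was Hsp90ab1, the constitutive cytosolic HSP90, at 21684, followed by Hspa8, the constitutive HSP70 (HSC70), at 11770.4, and Hsp90aa1, the inducible HSP90, at 7509. Mitochondrial Hspa9 (mortalin) stood at 3124 and Hspd1 (HSP60) at 3065, with overlapping libraries. The inducible pair was far lower, 167 per kb for Hspa1a and 164 for Hspa1b, ranked 38 and 39 of 61. At the low end lay Hspb7 at 6.58 and Dnajb13 at 7.96. Reads of Hsp90aa1, Hspa8 and Hspd1 could be shared with processed pseudogenes, which hold 41.8%, 34.6% and 38.0% of their 50-base words in a single copy each.

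**Figure D1:**
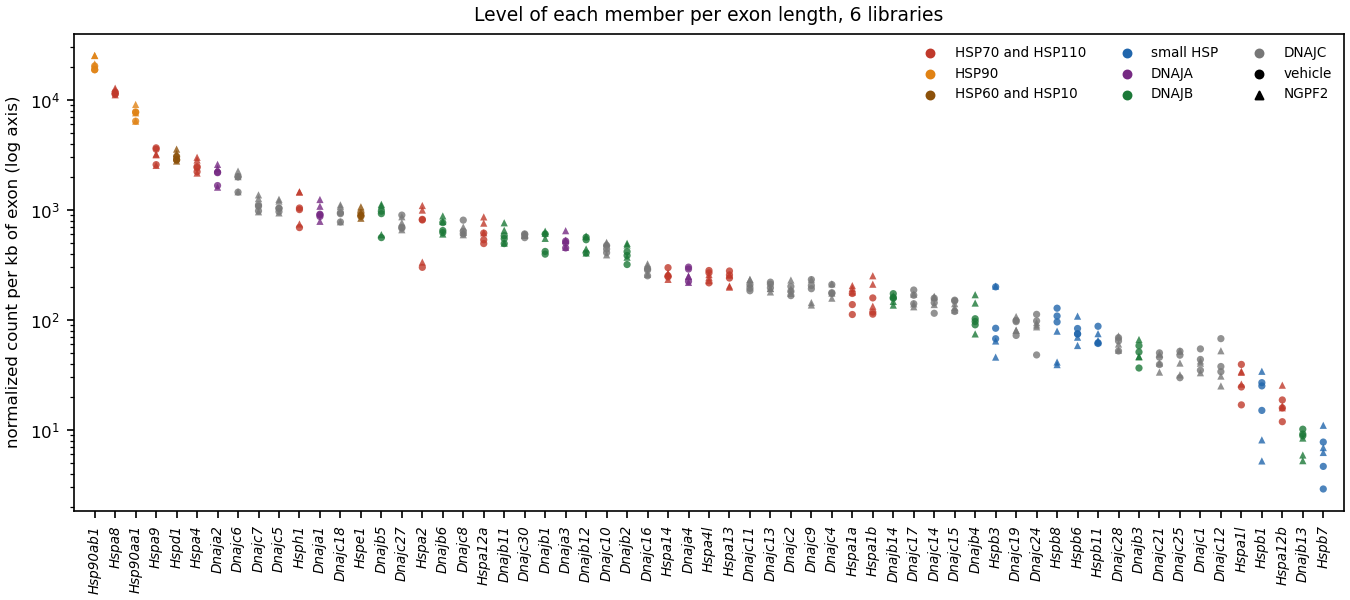
Normalized count per kb of exon (log axis) for the 61 genes, ordered by their mean, with each library as a point (circles vehicle, triangles NGPF2) coloured by class. Hsp90ab1, Hspa8 and Hsp90aa1 stand above all others, and the small heat shock proteins lie in the lower part of the range.

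Over all 3 pairs, with the replicate number as a block, none of the 61 genes passed the test of NGPF2 against vehicle (adjusted p under 0.05, limma, 2-sided), in a table where 0% of all genes passed. An unadjusted p under 0.05 was reached by 5 genes, a smaller share than among all genes tested. With limma-voom on the recovered counts 6 genes reached it, of which again 0 passed. The smallest adjusted p was 0.379. Hsph1 had the smallest p among genes higher with NGPF2, with a log2 difference of 0.38 ± 0.12 (SE, n = 3 pairs, limma adjusted p = 0.379), and Hspb8 among those lower, with -1.12 ± 0.31 (limma adjusted p = 0.379). Without replicate 1 the same test passed 10 of the 61 genes. A fit of those libraries without the block passed 21.1% of all genes tested.

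The pairs did not look alike. Over the 61 genes the median log2 differences of pairs 1, 2 and 3 were 0.01, 0.08 and 0.11, against 0.00, -0.01 and 0.00 over all genes tested. The typical size of a difference, the median of its absolute value, was 0.06, 0.24 and 0.25 on the log2 scale in the 3 pairs, against 0.10, 0.33 and 0.32 over all genes. A single pair has no replicate check. Higher with NGPF2 in all 3 pairs were 16 genes of the 61 and lower in all 3 were 9, against 2924 and 3146 of the 16653.

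**Figure D2:**
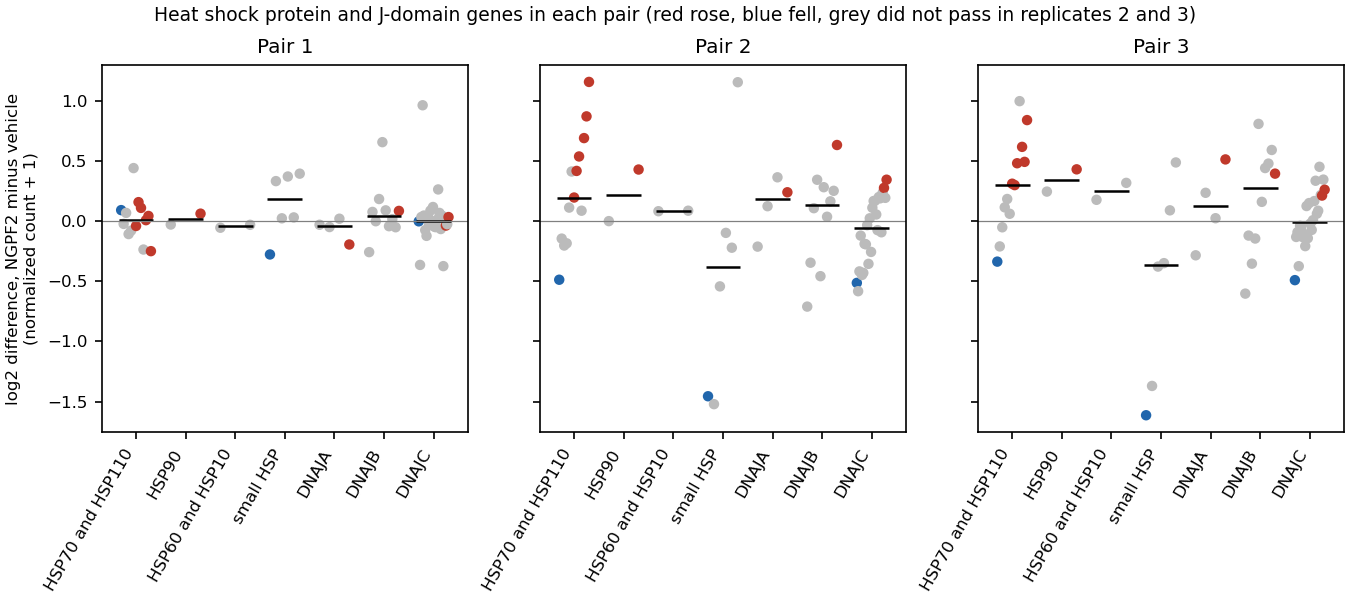
Log2 difference of NGPF2 minus vehicle for each of the 61 genes in each pair, by class, with a line at the class median; red genes rose and blue genes fell within replicates 2 and 3, and grey genes did not pass. The median absolute difference is 0.06 in pair 1 and 0.24 and 0.25 in pairs 2 and 3, although Dnajc24 (0.96) and Dnajb4 (0.66) lie far from 0 in pair 1, and in pairs 2 and 3 the red HSP70 and HSP90 genes lie above it and Hspb8 lies at -1.46 and -1.61.

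Within replicates 2 and 3 (2 vehicle and 2 NGPF2 libraries, taken as unpaired), 11 of the 61 genes rose and 3 fell with NGPF2, where 21.1% of all genes tested passed, 9.77% rising and 11.3% falling. The risers were Hspa1b, Hspa1a, Hspa12a, Hsph1, Hspa2 and Hspa4 of the HSP70 and HSP110 class, Hsp90ab1, and the J-domain genes Dnaja1, Dnajb1, Dnajc5 and Dnajc11. The genes that fell were Hspb8, Hspa13 and Dnajc9. When libraries were scaled to equal totals 6 rose and 7 fell, against 982 and 2659 of all 16653 genes. That scaling also moved the median of all genes from 0.00 to -0.13. Relative to all genes the median of the 61 was 0.13 on the deposited scale and 0.12 on the equal-total scale. After quantile scaling it was 0.01, and 7 rose and 3 fell, against 1651 and 1747 of all genes. Class counts given below under these scalings stand against the same totals. Leaving out vehicle 2 or vehicle 3 gave 0 of 61 in both directions, with 0% of all genes passing; 10 and 12 members then had an unadjusted p under 0.05. With no minimum on the counts only Hsph1 of the 14 calls was kept, and without the variance trend only Hspa1b and Hspb8.

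Among the HSP70 and HSP110 genes, 6 of 13 rose and 1 fell (4 and 2 with equal totals, 5 and 2 after quantile scaling). Hspa1b, an inducible cytosolic HSP70, had normalized counts of 444, 316 and 330.4 with vehicle against 374, 707 and 592 with NGPF2. Both NGPF2 libraries of replicates 2 and 3 lay above every vehicle library, while in pair 1 the NGPF2 library was the lower one. The rise within replicates 2 and 3 was 2.00-fold, a log2 difference of 1.00 ± 0.13 (SE, adjusted p = 0.00948). Hspa1a, its near-identical neighbour, had 516, 332 and 409 with vehicle against 532, 609 and 576 with NGPF2. Here the 3 NGPF2 libraries all exceeded the 3 vehicle libraries, although NGPF2 1 did so by little, and the log2 difference within replicates 2 and 3 was 0.68 ± 0.14 (SE, adjusted p = 0.0292). Since reads of the pair can be split either way, their sum was also taken. The sum came to 960.2, 648 and 739 with vehicle against 905, 1315 and 1168 with NGPF2, that is 0.943-fold, 2.03-fold and 1.58-fold in the pairs. As 1 row of the table the sum had a log2 difference of 0.84 within replicates 2 and 3 (limma adjusted p = 0.0102).

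Hsph1 (HSP110, the nucleotide exchange factor of HSP70) had 5020.1, 7318 and 7567 with vehicle against 5418, 10624 and 10564 with NGPF2. Replicates 2 and 3 were higher than replicate 1 in both groups, and within them NGPF2 exceeded vehicle with no overlap, by 0.51 ± 0.06 (SE, adjusted p = 0.00766) on the log2 scale. Hspa12a, a distant HSP70 relative abundant in brain, had 5663, 4922 and 4547 with vehicle against 5694, 7944 and 6976 with NGPF2. The difference was 0.01 on the log2 scale in pair 1, and within replicates 2 and 3 the gene rose by 0.65 ± 0.09 (SE, adjusted p = 0.0108). Hspa4, another HSP110-type protein, had 12301, 13722 and 13413 with vehicle against 11964, 15722 and 16643 with NGPF2. It rose by 0.25 ± 0.06 (SE, adjusted p = 0.0492), and Hspa2, known best from male germ cells, by 0.36 ± 0.08 (SE, adjusted p = 0.0351). The Hspa2 libraries were 795, 2171 and 2142 with vehicle against 887, 2900.4 and 2636 with NGPF2, so that the step between replicate 1 and the other replicates was larger than that between treatments. The Hspa4 call was lost with the replicate block (limma adjusted p = 0.0861), equal totals (0.234), quantile scaling (0.384) and a pseudocount of 0.5 (0.0504), and the Hspa2 call with equal totals (0.0754).

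The constitutive Hspa8 did not pass, at 50646, 48839 and 48464 with vehicle against 47939, 52801 and 55059 with NGPF2 and a log2 difference of 0.15 ± 0.06 (SE, adjusted p = 0.167), which turned to -0.03 after quantile scaling. Hspa9 (mortalin) had 11124, 15347 and 15818 with vehicle against 10949, 13878 and 13672 with NGPF2. Its difference of -0.18 ± 0.06 (SE, adjusted p = 0.0971) did not pass on the deposited scale; with equal totals it was -0.30 (limma adjusted p = 0.0223) and after quantile scaling -0.36 (limma adjusted p = 0.0108). Hspa13, an HSP70-like protein of the endoplasmic reticulum, fell: 1642, 1904 and 1754 with vehicle against 1749, 1358 and 1389 with NGPF2, a log2 difference of -0.41 ± 0.08 (SE, adjusted p = 0.0264) within replicates 2 and 3, where both NGPF2 libraries lay below all vehicle libraries. The remaining members of the class, Hspa1l, Hspa4l, Hspa12b and Hspa14, did not pass, with log2 differences from -0.13 (Hspa4l) to 0.54 (Hspa1l). Hspa1l lies beside Hspa1a and shares 71.9% of its exon bases with a gene on the opposite strand, Gm10501, so its reads cannot be assigned with certainty.

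Of the cytosolic HSP90 genes, Hsp90ab1 rose and Hsp90aa1 did not pass. Hsp90ab1 had 61142, 56459 and 56528 with vehicle against 63838, 76017 and 76194 with NGPF2, and the 3 NGPF2 libraries lay above the 3 vehicle libraries. Its log2 difference was 0.43 ± 0.06 (SE, adjusted p = 0.0121) within replicates 2 and 3. Hsp90aa1 had 30635, 25219 and 30194 with vehicle against 30039, 25219.7 and 35799.7 with NGPF2. Its vehicle and NGPF2 values overlapped, since vehicle 2 and NGPF2 2 were nearly equal and replicate 3 was higher in both groups; the log2 difference of 0.12 ± 0.19 (SE, adjusted p = 0.676) turned negative after equal-total scaling, at -0.00410, and after quantile scaling, at -0.12. The mitochondrial chaperonin did not pass either, with 0.20 ± 0.08 (SE, adjusted p = 0.131) for Hspd1 and 0.13 ± 0.09 (SE, adjusted p = 0.375) for Hspe1 (HSP10). Hspd1 values were 7513, 8104 and 7569 with vehicle against 7355, 8605 and 9437 with NGPF2, and both genes were higher in pairs 2 and 3 and slightly lower in pair 1.

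The small heat shock proteins had the lowest class medians in pairs 2 and 3, -0.38 and -0.36, against 0.18 in pair 1; within replicates 2 and 3 the median of -0.34 became 0.00499 after quantile scaling (-0.34 and -0.05 relative to all genes). Only Hspb8 of the 6 passed, and it fell. The class was formed by symbol alone, so it holds Hspb11 and leaves out the small heat shock protein Cryab, which is counted with the co-chaperones. Cryab had 414, 302 and 271 with vehicle against 354, 247 and 221 with NGPF2. Its difference of -0.29 ± 0.14 (SE, adjusted p = 0.215) within replicates 2 and 3 did not pass. Hspb8, which with its co-chaperone Bag3 directs clients to autophagy, had 187, 212 and 249.3 with vehicle against 154, 76.5 and 80.8 with NGPF2. All NGPF2 libraries lay below all vehicle libraries, and the difference within replicates 2 and 3 was 2.90-fold lower, or -1.54 ± 0.18 (SE, adjusted p = 0.00742) on the log2 scale. Bag3 itself had 133, 111 and 144 with vehicle against 141, 49.0 and 17.9 with NGPF2. It fell by the same test, with a log2 difference of -2.05 ± 0.50 (SE, adjusted p = 0.0460). After quantile scaling it did not pass (-1.69, limma adjusted p = 0.0604).

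Hspb1 (HSP25) was close to the minimum, with a mean normalized count of 19.7, and had 27.7, 25.9 and 15.5 with vehicle against 35.2, 8.37 and 5.38 with NGPF2. NGPF2 2 and 3 were the lowest libraries and NGPF2 1 the highest, and the difference of -1.45 ± 0.50 (SE, adjusted p = 0.103) did not pass. A pseudogene, Hsp25-ps1, holds 48.8% of its 50-base words. Hspb3, Hspb6, Hspb7 and Hspb11 had log2 differences from -0.46 (Hspb3) to 0.82 (Hspb7), and none passed. Hspb7 (18.2) and Hspb1 were the members nearest to the minimum of 10, and Hspb9 (6.13) and Hspb2 (3.27) were nearest to it from the other side; Dnajb8, Dnajc5b and Dnajc22 were lower still. The summed astrocyte markers moved with Hspb8 and Hspb1 in pairs 2 and 3, to 20478 and 16933 normalized counts from 79890 and 72698. So did markers of oligodendrocyte precursors (1254 and 1298 from 7278 and 6739) and of fibroblast and mural cells (179 and 174 from 573 and 516). Microglial markers fell to 79 and 131 from 698 and 587, while pan-neuronal markers rose to 213496 and 204602 from 172593 and 169405. The part of these cell types in the fall of Hspb8 was not tested.

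**Figure D3:**
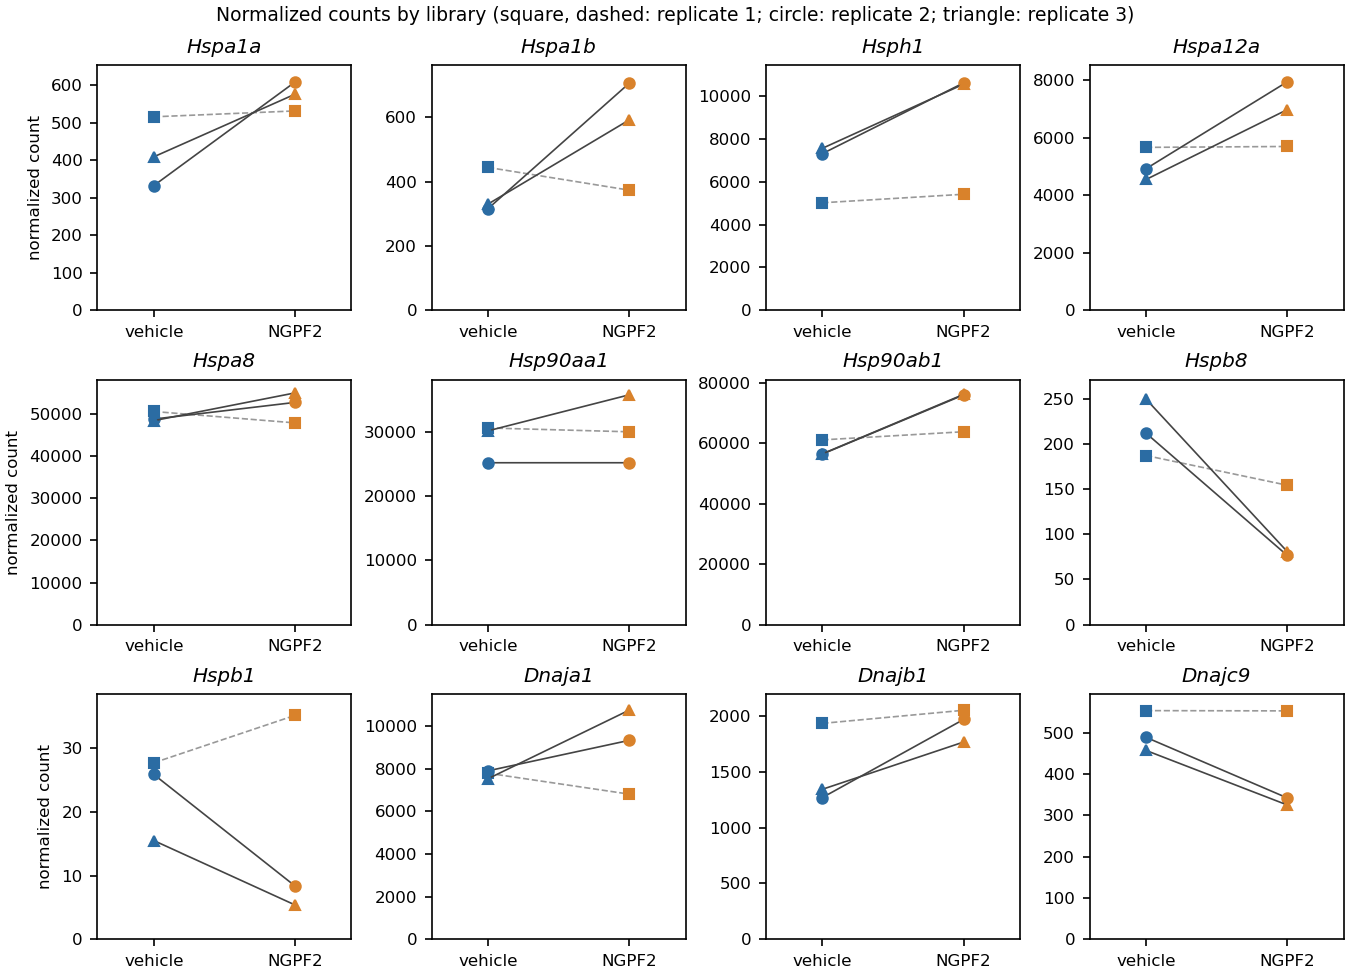
Normalized counts of 12 genes in the 6 libraries, vehicle at left and NGPF2 at right, with lines joining the libraries of a pair (dashed for replicate 1). Hspa1b, Hsph1 and Hsp90ab1 climb in replicates 2 and 3 while the line of replicate 1 is nearly flat or falls, and Hspb8 and Dnajc9 fall in replicates 2 and 3.

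Among J-domain genes, class A and class B proteins are general partners of HSP70, and 2 of these 14 rose and 0 fell (with equal totals 1 rose and 2 fell, and after quantile scaling 1 and 0). Dnaja1, a cytosolic partner of HSP70, had 7779, 7894 and 7525 with vehicle against 6799.7, 9323 and 10739.7 with NGPF2. It was lower with NGPF2 in pair 1 and higher in pairs 2 and 3, by 0.38 ± 0.09 (SE, adjusted p = 0.0419) on the log2 scale. That call was lost with equal totals (limma adjusted p = 0.128) and after quantile scaling (0.225). Dnajb1 (HSP40, the partner of inducible HSP70) had 1935, 1270.1 and 1344 with vehicle against 2053, 1970.2 and 1768 with NGPF2. The vehicle libraries of replicates 2 and 3 were below every other library, and the rise within replicates 2 and 3 was 0.51 ± 0.09 (SE, adjusted p = 0.0199). Dnajb6, a suppressor of polyglutamine aggregation, had 3769.8, 4645 and 3938 with vehicle against 3661, 4764 and 5348 with NGPF2 and did not pass, at 0.24 ± 0.11 (SE, adjusted p = 0.184). The other members of these classes, 11 genes, ranged from -0.66 (Dnajb13) to 0.42 (Dnajb2), and none passed. Dnajb4 varied most between the NGPF2 libraries of a batch, with 791, 899 and 848 with vehicle against 1248, 654 and 1486 with NGPF2.

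Class C holds J-domain proteins with specialised roles. Of 24 genes, 2 rose and 1 fell within replicates 2 and 3 (0 and 2 with equal totals, 0 and 0 after quantile scaling), and the class median was -0.05 and -0.01 in pairs 2 and 3. Dnajc5 (cysteine string protein) had 6709.6, 7175 and 7225 with vehicle against 6539, 8690.3 and 8374 with NGPF2 and rose by 0.24 ± 0.06 (SE, adjusted p = 0.0475). Dnajc11, a mitochondrial protein tied to cristae organisation, had 2234, 1967 and 2069 with vehicle against 2287, 2497 and 2480.3 with NGPF2 and rose by 0.30 ± 0.07 (SE, adjusted p = 0.0406). Dnajc9, which recruits HSP70 to histones, had 553, 489 and 457 with vehicle against 553, 342 and 325 with NGPF2 and fell by 0.50 on the log2 scale (SE 0.11, limma adjusted p = 0.0376). With the replicate block these 3 calls were lost, at limma adjusted p = 0.0917, 0.0725 and 0.0560. The Dnajc5 and Dnajc11 calls were also lost with equal totals (limma adjusted p = 0.197 and 0.149) and, like that of Dnajc9, after quantile scaling (0.521, 0.0723 and 0.0743). Dnajc6 (auxilin) had 8577, 11857 and 11807 with vehicle against 8645, 13328 and 11872 with NGPF2; its log2 difference of 0.09 ± 0.08 (SE, adjusted p = 0.462) turned to -0.04 with equal totals and to -0.05 after quantile scaling. The 20 other class C genes ranged from -0.36 (Dnajc12) to 0.27 (Dnajc7).

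Some members that work in mitochondria and in the endoplasmic reticulum were set apart from their class, with the place taken from general knowledge. Neither set is complete. Of 8 mitochondrial genes (Hspa9, Hspd1, Hspe1, Dnaja3, Dnajc11, Dnajc15, Dnajc19 and Dnajc30), 1 rose and 0 fell within replicates 2 and 3, against 9.77% and 11.3% of all genes, with a median log2 difference of 0.09. Of 6 genes of the endoplasmic reticulum (Hspa13, Dnajb11, Dnajb12, Dnajb14, Dnajc1 and Dnajc10), 0 rose and 1 fell, with a median of -0.18. Among the genes placed in neither set were Dnajc14, Dnajc16, Dnajc18, Dnajc25 and Dnajc28, with log2 differences of 0.11, 0.14, 0.23, -0.11 and 0.18. Both medians depend on which genes were picked. Of the 4 stress genes that the rule leaves out, 0 rose and 1 fell. It was Dnajc3, an inhibitor of the kinase PERK, with 1009, 1147 and 1176 with vehicle against 1014, 796 and 795 with NGPF2 and a log2 difference of -0.54 ± 0.08 (SE, adjusted p = 0.0128).

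Genes that work with these chaperones gave the context. Of 33 HSP70 and HSP90 co-chaperones 6 rose and 1 (Bag3) fell within replicates 2 and 3 (2 and 1 with equal totals, 3 and 0 after quantile scaling, which loses Bag3), against the 9.77% and 11.3% of all genes, with medians of -0.03, 0.13 and 0.19 in pairs 1, 2 and 3. Fkbp4, an immunophilin of the HSP90 complex, rose by 0.46 ± 0.06 (SE, adjusted p = 0.0102) and Stip1 (HOP, which joins HSP70 to HSP90) by 0.43 ± 0.06 (SE, adjusted p = 0.0121). Stip1 had 6355, 6301 and 6587 with vehicle against 6031, 8714 and 8606 with NGPF2, flat in pair 1 and separate in the other pairs. Of 14 chaperonin and prefoldin genes 5 rose and 0 fell (1 and 1 with equal totals, 1 and 0 after quantile scaling), led by Cct3 (0.49), Cct6a (0.40) and Cct5 (0.33), subunits of the cytosolic chaperonin, with medians of -0.08, 0.13 and 0.30. The Cct6a and Cct5 calls were lost with equal totals (limma adjusted p = 0.0562 and 0.0822) and after quantile scaling (0.0744 and 0.0966). The transcription factors behind the heat shock response did not pass: of 5 tested factors and regulators 0 rose or fell. An unadjusted p under 0.05 was reached by 1 of them, against 6128 of all 16653 genes tested. Hsf1 had 395, 540.4 and 528 with vehicle against 479, 591 and 509.7 with NGPF2. In the same contrast 3 of 6 pan-neuronal markers rose, with summed levels of 172593 and 169405 in the vehicle libraries against 213496 and 204602 in those with NGPF2. Of 7 excitatory markers 3 rose and 2 fell, of 7 inhibitory markers 4 rose and 2 fell, and all 13 astrocyte markers fell. The part of these cell types in the rise of the HSP70, HSP90 and chaperonin genes was not tested.

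**Figure D4:**
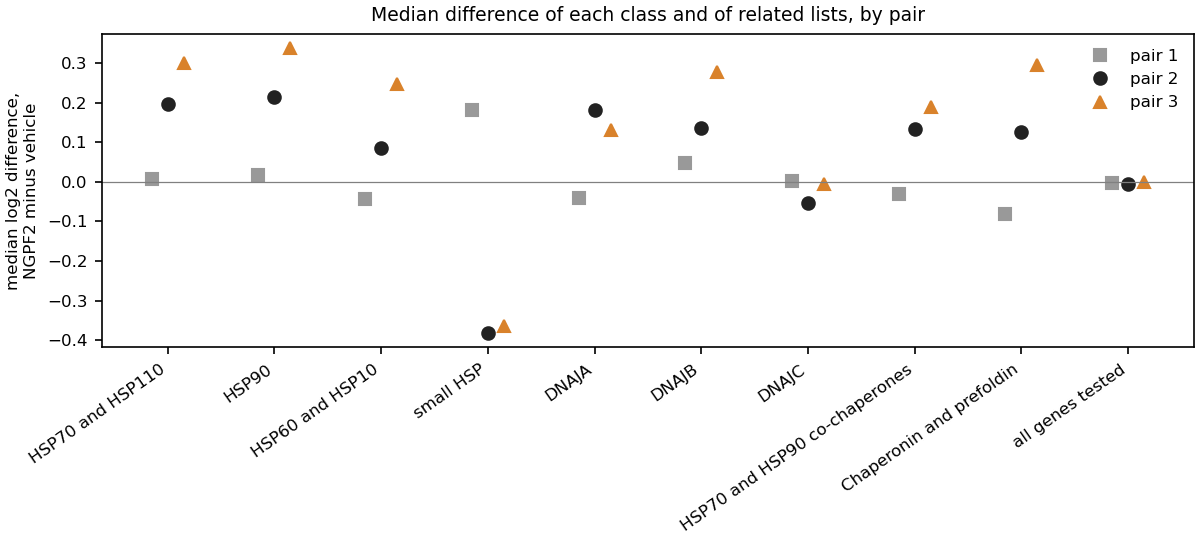
Median log2 difference of NGPF2 minus vehicle in pairs 1, 2 and 3 for each class of heat shock and J-domain genes, for the co-chaperones and chaperonins, and for all genes tested. The HSP70, HSP90, DNAJB and chaperonin medians lie between 0.13 and 0.34 in pairs 2 and 3 and close to 0 in pair 1, and the small heat shock proteins lie on the other side of 0 in pairs 2 and 3.

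Whether the NGPF2 effect differed between the library batches was tested as such. None of the 61 genes passed, where 2.49% of all genes did (0.721% more positive and 1.77% more negative in replicates 2 and 3). An unadjusted p under 0.05 was reached by 13 of the 61, against 3386 of all 16653 genes tested, and 1 gene passed with limma-voom. Hspa1b came closest, with an effect larger by 1.25 ± 0.23 (SE, adjusted p = 0.0662) on the log2 scale in replicates 2 and 3, and it passed with a minimum of 50 (limma adjusted p = 0.0444), after quantile scaling (0.0417) and with voom (0.0224). Hspb8 was the nearest in the other direction at -1.26 ± 0.30 (SE, adjusted p = 0.108). Dnajc24, which works in diphthamide synthesis, had the widest negative difference of effects among the J-domain genes, -1.21 ± 0.31 (SE, adjusted p = 0.125), and its values were 65.8, 134 and 154 with vehicle against 129, 123 and 118 with NGPF2. Vehicle 1 alone was low, and the 3 NGPF2 libraries lay within 118 to 129. In this test the lone libraries of replicate 1 were assumed to vary like those of replicates 2 and 3.

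The batches differed without treatment. Between vehicle replicates 2 and 3 and vehicle replicate 1, 7 of the 61 genes were higher and 3 lower, where 19.9% of all genes passed, 10.5% higher and 9.42% lower. Hspa2 led the genes that were higher, at 1.44 ± 0.10 (SE, adjusted p = 0.00266), followed by Dnajc24 at 1.11 ± 0.22 (SE, adjusted p = 0.0283) and Dnajb5 at 0.76 ± 0.08 (SE, adjusted p = 0.00629); Hsph1, Hspa9, Dnajc6 and Dnaja2 also passed, by 0.57, 0.49, 0.46 and 0.40. Lower were Hspb3, Dnajc12 and Dnajb1. Hspb3, a muscle-type small heat shock protein, had 156, 52.7 and 65.6 with vehicle against 159, 35.9 and 50.3 with NGPF2 and a difference of -1.39 ± 0.33 (SE, adjusted p = 0.0449), and Dnajc12, a partner of the aromatic amino acid hydroxylases, -0.92 ± 0.22 (SE, adjusted p = 0.0450). For Dnajb1 the difference was -0.57 ± 0.11 (SE, adjusted p = 0.0262). Hspa1a and Hspa1b lay lower too without passing, at -0.48 and -0.46. These vehicle libraries also enter the treatment contrast, so the 2 sets of values are not independent. The calls of the 61 genes were all lost without vehicle 2 or vehicle 3, in fits that keep 1 vehicle library on each side. The astrocyte sum was 79890 and 72698 in vehicle 2 and 3 against 29087 in vehicle 1, and inhibitory neuron markers summed to 48205 and 52134 against 118284. Excitatory neuron markers summed to 82860.5 and 85290 against 29011, but only 3 of these 7 markers were higher. Their median log2 difference was -0.20, and 2 passed higher and 1 lower. Fibroblast and mural markers summed to 573 and 516 against 3501. The part of these cell types in the batch differences was not tested.

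**Figure D5:**
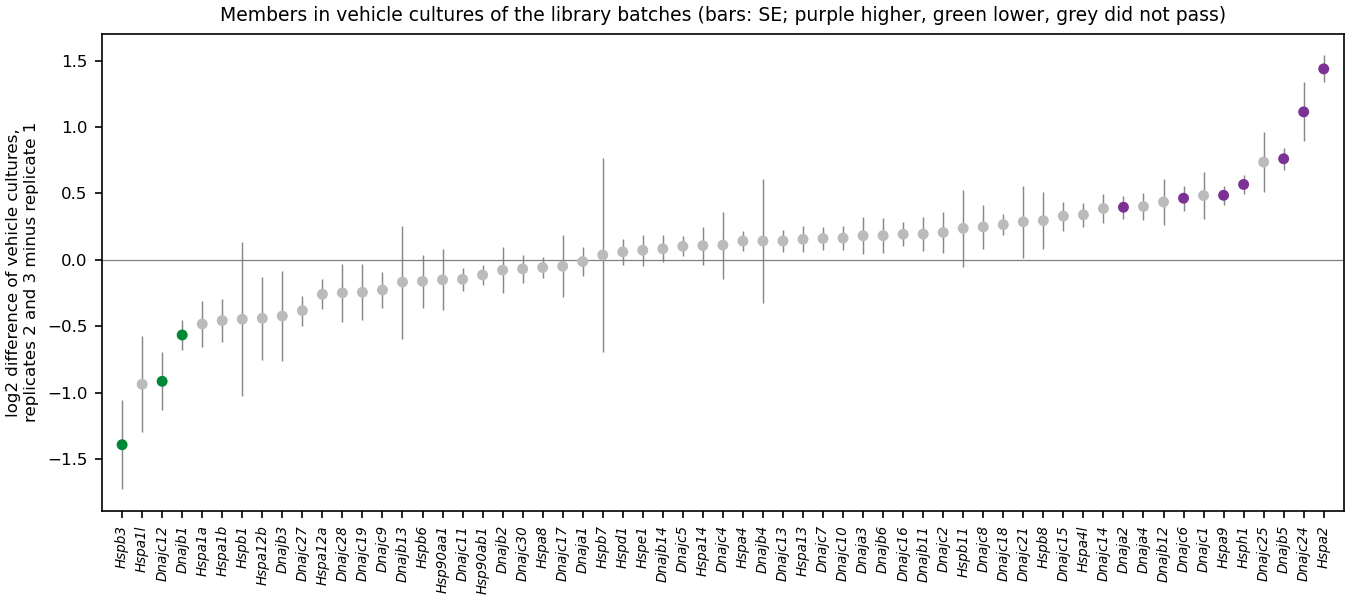
Log2 difference of vehicle replicates 2 and 3 minus vehicle replicate 1 for the 61 genes, ordered, with bars of 1 SE; purple genes were higher and green genes lower past the threshold. Hspa2 lies at 1.44 and Hspb3 at -1.39, and the 51 genes in grey did not pass.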

How the data were processed

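RNA from the 6 cultures was poly(A)-selected, fragmented and sequenced, per the labels' protocols. Per the submitters' processing notes, the build was mm10 and the tools included STAR 2.5, DESeq 1.22.1, Cuffnorm and FastQC, with no role stated. Neither a counting tool nor a strand setting is given in the sources used here. The authors' deposited table carries FPKM in its name, yet it holds log2 values of normalized counts with 1 added. With the log undone and the 1 removed, 100% of them were whole multiples of 1 step per library (tolerance 0.01). Whole counts were so recovered. Symbols were matched for 31185 identifiers, and 60 had none. The columns of replicates 2 and 3 carry the library names of the sample titles; the column left over in each group became replicate 1 by elimination and initial, although it carries the digit 3.

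Tests used the log2 values unchanged (pseudocount 1) in limma 3.58.1 with R 4.3.3: linear models with trended empirical Bayes variances, 2-sided, with p-values adjusted by Benjamini-Hochberg over the 16653 genes whose mean normalized count reached 10, threshold 0.05. Every adjusted p is from limma over that whole table, and SE is that of the fitted log2 difference. The 3 pairs were fitted with the replicate number as a block, since the submitters state paired experiments. As a check, libraries with the same number deviated together from their group means (r across genes 0.59, 0.30 and 0.33). Replicates 2 and 3 crossed did so to a like degree (0.32 and 0.34). The check thus sets replicate 1 apart and does not show that replicates 2 and 3 are paired by number. Replicates 2 and 3 were fitted without a block, and the batch contrasts on 4 cell means. The fits were tested on simulated data; the simulated folds were raised after a first run had missed most of them, and the smaller ones were mostly missed in the repeat as well, so a gene that did not pass is not shown to be unchanged. Sequence sharing was counted as 50-base words common to other genes' exons (GENCODE M21, GRCm38).

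The genes and all lists were chosen with earlier results of these data known, and the lists are described without tests. Named genes were a fixed set of 17, up to 4 per class and direction among those that passed within replicates 2 and 3, the smallest p per direction in each other comparison, and the genes next to the minimum. Dnajb4, Dnajc12, Dnajc24, Hspb3, Hsf1 and the ends of ranges were named after their values were seen, as were the mitochondrial and endoplasmic reticulum groups, the genes plotted by library and the sum of Hspa1a and Hspa1b. The plan was to print whole promoters with a 3-unit match; because these lie in exons, 30-base windows and exon-free upstream stretches are printed instead. Protein sequences were not used here.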

Additional observations from a re-analysis of the deposited data

How the results depend on the processing

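Over the 3 pairs 0 of 61 genes passed under every alternative but 1, including the fit with no replicate block (0) and the library batch as block, added after seeing the data (0); leaving out replicates 1, 2 and 3 in turn gave 0 to 10, with 10 without replicate 1. A fit of replicates 2 and 3 without the block passed 21.1% of all genes tested. Within replicates 2 and 3, the 11 higher and 3 lower genes became 6 and 7 with equal library totals, 1 and 0 with no minimum, 1 and 1 without the variance trend, 7 higher after quantile scaling, and 8 and 2 with the replicate block, which lost Hspa4, Dnajc5, Dnajc11 and Dnajc9 and no other named call. Of all 16653 genes, 982 were higher and 2659 lower with equal totals, and 1651 and 1747 after quantile scaling. Leaving out 1 library gave 0 to 10 higher and 0 to 1 lower; a lone library was then assumed to vary like the rest. Hsp90aa1 reversed to -0.00410 (equal totals), -0.12 (quantile), -0.13 (without NGPF2 3) and -0.00699 (without vehicle 2), with 0.38 the highest of its values without 1 library; Dnajc6 to -0.0387 and -0.0470 (equal totals, quantile) and Hspa8 to -0.0327 (quantile). In the difference of effects, 1 gene was more positive with a minimum of 50, no minimum, quantile scaling or voom. Between vehicle batches the 7 higher and 3 lower became 2 and 0 without the trend and 12 and 5 with voom; the lower ones became 0 with no minimum and 5 after quantile scaling; leaving out 1 library gave 0 to 9 higher and 0 to 4 lower. The causes were not tested. The low counts of Hspb1 and Hspb7 limit their precision, and intervals cover few cultures.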
